A study of Mus musculus with 6 samples.

Results

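The retinoic acid genes described here are 8 genes of retinoic acid synthesis and response, read in cultured lung fibroblasts of Mmp19 knockout and wild-type mice. They are the retinal dehydrogenases Aldh1a1, Aldh1a2 and Aldh1a3, the cellular retinoic acid binding proteins Crabp1 and Crabp2, the retinol uptake receptor Stra6, the nuclear receptor Rarb and the retinoic acid hydroxylase Cyp26b1. They were chosen by name for their roles, with earlier results of these data known. Their 9 probes were found through the RefSeq accessions of the array's spots, 2 for Rarb and 1 for each of the others. Of the 8 genes, 5 had a probe bright enough to be tested, out of 12471 named genes tested in all.

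Both groups came from mice labelled female and 11 weeks old that had received 0.08 units of bleomycin, a drug that scars the lung, through the trachea. Lung fibroblasts were taken on day 21, grown in fibroblast medium and incubated for 72 hours, so there is no group without bleomycin. One group of 3 cultures carried an Mmp19 knockout, which removes a matrix metalloproteinase, and the other group of 3 was wild type. Each culture was read on 1 one-colour array, and 0.5 µg of RNA was labelled for each. The mouse strain, and whether a culture came from 1 animal or a pool, are not stated in the sources at hand.

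Retinoic acid is made from vitamin A. Cells take up retinol through Stra6, retinol dehydrogenases oxidise it to retinal, and the Aldh1a enzymes oxidise retinal to retinoic acid in a step that cannot be reversed. Crabp proteins carry retinoic acid to nuclear receptors, which are pairs of a retinoic acid receptor (Rara, Rarb, Rarg) and a retinoid X receptor, or to the Cyp26 enzymes that clear it. Rarb, Cyp26a1 and Dhrs3 are classical target genes that rise when retinoic acid is added to cells. In the lung, retinoid signalling is known for its part in branching, alveolus formation and the mesenchyme.

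The letters by which Rarb is known to respond are in its promoter, and are shown because Rarb is one of the genes in which the groups differed. A retinoic acid receptor pair binds direct repeats of a half-site (A or G, then G, then G or T, then TCA), spaced by 5 or by 2 bases. Windows from 250 bases before to 50 bases after a gene's start, from RefSeq on build GRCm38.p6, were searched on both strands, counting overlapping matches. Such windows were at hand for 6 of the 8 genes (10 windows), and 1 of the 6, Rarb, held a repeat. Its repeat is spaced by 5 bases, is 17 bases long and begins 53 bases before the start, at chr14:16575493-16575549 on the minus strand for the stretch printed. Among 61 other retinoid genes, 44 had a window and 1 of them, Cyp26a1, held a repeat, also spaced by 5, beginning 32 bases before the start in the stretch chr19:37697756-37697807 on the plus strand. Capitals mark the half-sites, which in Cyp26a1 lie on the opposite strand.
Rarb: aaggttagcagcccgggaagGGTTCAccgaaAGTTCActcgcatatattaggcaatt
Cyp26a1: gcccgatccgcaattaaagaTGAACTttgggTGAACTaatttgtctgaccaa
Of 32851 promoter windows of that length, 0.0974% held a repeat spaced by 5 and 0.268% a repeat spaced by 2, while 43.7% held at least 1 single half-site. The counts above are by gene. Of all 27025 genes with a window, 0.115% held a repeat spaced by 5, 0.311% a repeat spaced by 2 and 46.9% a half-site. A match describes letters and does not show that a receptor bound there in these cells.

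The arrays read RNA of cultures labelled as lung fibroblasts, with limits that touch every value. Of 12 fibroblast markers, 10 were well above background on all 6 arrays. Of 12 lung epithelial markers, 8 were also well above background on all 6 arrays, among them the surfactant gene Sftpc, and 2, Epcam and Nkx2-1, were on none. Mmp19 was well above background on 3 of 3 wild-type and 0 of 3 knockout arrays, a difference of at least 5.33-fold (limma adjusted p = 0.016), and whether its probe lies in the deleted stretch is unknown. The Mmp19 call held in 12 of 17 alternatives and was lost with normexp (change -1.40, adjusted p = 0.0759), with no filter (0.0551) and without knockout replicate 2 (0.0512), knockout replicate 3 (0.0903) or wild-type replicate 3 (0.0784). Wild-type replicate 2 stood apart, with correlations of 0.939 and 0.960 to replicates 1 and 3, against 0.984 between those. Both probes of Xist, made from the silenced X in female cells, were well above background on all knockout arrays and no wild-type array, while the Y-linked Eif2s3y and Ddx3y were above it on all 6 and changed by -3.21 and -2.47 log2 units in the knockout without passing (adjusted p = 0.112 and 0.139). The labels give every sample as female, but absent Xist with Y-linked signal on the wild-type arrays is at odds with that label. Y-linked signal on the knockout arrays, beside Xist, is at odds with it too. The source of the Y-linked signal was not tested. The groups thus differ in sex-linked signal as well as in genotype. A difference in sex or in cell mixture was not tested, and cannot be told apart from genotype in what follows. The 75th percentile of the spot signal ran from 138 to 328 units over the 6 arrays. Precision is set by there being 3 arrays per group.

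In the cells without Mmp19, Aldh1a1 was higher and both Rarb probes lay above every wild-type array, 1 of them past the test. Aldh1a2 and Cyp26b1 overlapped between the groups, Crabp2 lay lower without passing, and Aldh1a3, Crabp1 and Stra6 were too dim to be tested. Signals below are log2 values after subtraction of each array's 75th percentile, so 0 is that percentile, and changes are knockout minus wild type with the standard error of the limma fit. By the brighter probe of each gene, 1 of the 5 genes tested passed (adjusted p under 0.05), with 3 at an unadjusted p under 0.05. Of all named genes tested 4.8% passed, 3.3% higher and 1.49% lower in the knockout, 21.8% had an unadjusted p under 0.05, and of all 24216 probes tested 4.64% passed. The median change was 0.62 over the 5 genes and 0.08 over all named genes tested. The groups did not overlap in 3 of the 5, 2 of them higher and 1 lower in the knockout, against 31% of all named genes with complete values, 21.2% of them higher. With so few genes, neither share departs from the background in a way that can be read.

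**Figure D1:**
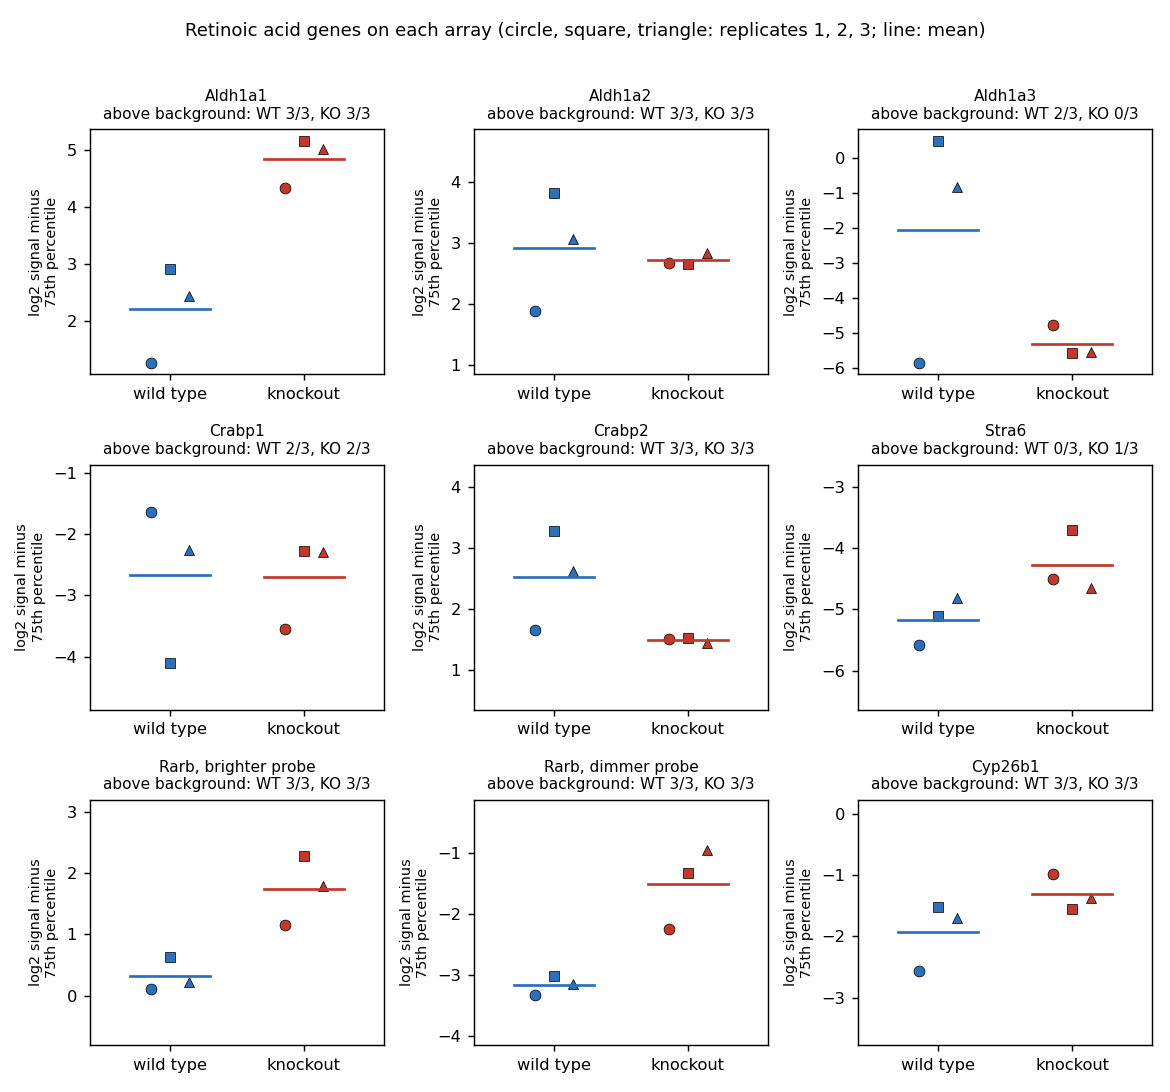
Log2 signal minus the array's 75th percentile (y axis) for each of the 9 probes in wild-type (blue) and knockout (red) cultures; symbols are replicates 1, 2 and 3, the line is the group mean, and each title gives how many arrays were well above background. The Aldh1a1 knockout arrays, from 4.33 to 5.17, lie above the wild-type arrays, from 1.27 to 2.92, as do both Rarb probes, while Aldh1a2 and Cyp26b1 overlap.

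Among the synthesis enzymes, Aldh1a1 rose. This cytosolic dehydrogenase turns retinal into retinoic acid and also oxidises other aldehydes. Its log2 signals were 4.33, 5.17 and 5.03 on knockout replicates 1 to 3, and 1.27, 2.92 and 2.45 on wild-type replicates 1 to 3. Every knockout array was above every wild-type array, and the lowest knockout value exceeded the highest wild-type value by 1.41. The means were 4.84 ± 0.45 and 2.21 ± 0.85 (SD, n = 3 each), a change of 2.63 ± 0.46 (SE), or 6.18-fold (limma adjusted p = 0.0298; 95% interval 1.54 to 3.72). Within the 3 slides, each of which held 1 array per group, the differences were 3.06, 2.25 and 2.58, and a slide block gave an adjusted p of 0.0341. In an exact two-sided permutation test of this gene alone p was 0.1, the lowest possible with 3 arrays per group. The change lay between 2.16 and 2.98 in all 18 alternatives, but the call was lost in 6 of them: with no filter on dim probes, with a filter that asks for 1 bright array (adjusted p = 0.107 and 0.068), and without knockout replicates 1, 2 or 3 or wild-type replicate 3 (0.0541, 0.0828, 0.139 and 0.105). It held without wild-type replicate 2 (change 2.98, adjusted p = 0.018).

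Aldh1a2, the enzyme that makes most retinoic acid in the embryo and is also known from mesothelium, did not pass. Its log2 signals were 2.67, 2.66 and 2.83 in the knockout and 1.89, 3.82 and 3.06 in wild-type cells. The 3 knockout arrays lay close together inside the wild-type range, so the groups overlapped. The change was -0.20 ± 0.46 (limma adjusted p = 0.837), with a 95% interval from -1.31 to 0.90. Within slides it was 0.78, -1.16 and -0.23, and without wild-type replicate 2 it turned to 0.24.

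Aldh1a3, another retinal dehydrogenase, was well above background on 2 of 3 wild-type arrays and on 0 of 3 knockout arrays. The wild-type log2 signals were -5.85, 0.49 and -0.82, so replicate 1 lay at background and replicates 2 and 3 did not. The knockout signals were -4.77, -5.57 and -5.54, none of them well above background. By group means the knockout was at least 3.17-fold lower, with each knockout array's dimmest reliably detected probe as the floor. This does not hold array by array, since wild-type replicate 1 lay below every knockout array. The probe was outside the test, the exact permutation p was 0.4, and with no filter the adjusted p was 0.575. Without wild-type replicate 1 the probe entered the test through its 2 bright wild-type arrays alone. It then passed with a change of -5.13 (limma adjusted p = 0.0203), measured against knockout values at background. That pass is given no weight, since leaving out the dim wild-type array and the filter set its direction. The reading rests on wild-type replicate 1.

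The genes that bring in and carry the ligand gave less signal or no call. Stra6, the receptor that takes up retinol from its plasma carrier, was well above background on 1 knockout array and no wild-type array. Its log2 signals were -4.50, -3.70 and -4.65 in knockout and -5.58, -5.11 and -4.81 in wild-type cells. The knockout arrays all lay above the wild-type arrays, by 0.16 at the nearest pair, but 5 of the 6 values were not well above background, so no fold is given (exact permutation p = 0.1). Crabp1, a carrier thought to hold retinoic acid in the cytoplasm, was well above background on 2 arrays of each group. Its signals were -3.54, -2.27 and -2.29 in the knockout and -1.63, -4.10 and -2.25 in wild-type cells, with means of -2.70 ± 0.73 and -2.66 ± 1.28 (SD, n = 3 each). The groups overlapped, and the gene was not tested because neither group was bright on all of its arrays.

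Crabp2, the carrier that hands retinoic acid to its receptors, was bright on all 6 arrays. Its log2 signals were 1.51, 1.53 and 1.45 in the knockout and 1.66, 3.27 and 2.62 in wild-type cells. All knockout arrays lay below all wild-type arrays, though wild-type replicate 1 was close to the knockout level. The change was -1.02 ± 0.40 (SE, n = 3 per group) and did not pass (limma adjusted p = 0.201; 95% interval -1.97 to -0.08). The differences within slides were -0.15, -1.74 and -1.18. It was -1.45 without wild-type replicate 1 (adjusted p = 0.0662) and -0.65 without wild-type replicate 2.

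Among the wild-type arrays Aldh1a1, Aldh1a2, Aldh1a3, Crabp2, Cyp26b1 and both Rarb probes shared an order. Each had its lowest wild-type signal on replicate 1 and its highest on replicate 2. The wild-type SDs were 0.85, 0.97, 3.35, 0.81 and 0.56 for the first 5 of these and 0.27 and 0.16 for the brighter and dimmer Rarb probes. Crabp1 and Stra6 had other orders. The fibroblast markers Thy1, Vim and Fn1 were likewise lowest on wild-type replicate 1 and highest on replicate 2, while Dcn and Lum were lowest on replicate 2. The shared order was therefore not particular to the retinoid genes, and its share over all genes was not computed. The order has no meaning in time, and its cause was not tested.

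Rarb, the receptor that is itself a target of retinoic acid and carries the repeat printed above, was higher on both of its probes. On the brighter probe the log2 signals were 1.15, 2.28 and 1.78 in the knockout and 0.11, 0.63 and 0.23 in wild-type cells. On the dimmer probe they were -2.24, -1.33 and -0.95 in the knockout and -3.33, -3.01 and -3.15 in wild-type cells. On both probes all knockout arrays were above all wild-type arrays, with knockout replicate 1 the lowest of its group. The change was 1.42 ± 0.33 (SE, n = 3 per group; limma adjusted p = 0.0628) on the brighter probe and 1.66 ± 0.35 (adjusted p = 0.0483) on the dimmer, so only the dimmer one passed. These are changes of 2.67-fold and 3.15-fold, with 95% intervals of 0.64 to 2.19 and 0.83 to 2.48 on the log2 scale. The mean of both probes gave 1.54 ± 0.32 and an adjusted p of 0.0479. Within slides the brighter probe differed by 1.04, 1.65 and 1.56 and the dimmer by 1.09, 1.68 and 2.20.

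The Rarb call sat at the threshold. The dimmer probe passed in 3 of 18 alternatives: scaling to the median (adjusted p = 0.0419), leaving out knockout replicate 1 (0.0278), and array weights, whose fit did not converge. The brighter probe passed with array weights alone, and a slide block gave 0.0769 for the dimmer and 0.0702 for the brighter probe. In all 18 the change was positive, from 0.68 to 2.15 for the dimmer probe and from 1.06 to 1.71 for the brighter. The lowest value of each came with normexp, whose offset is added to every signal and shrinks the changes of dim probes. Both probes carry the accession NM_011243, and which stretch of the transcript each reads is unknown here.

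**Figure D2:**
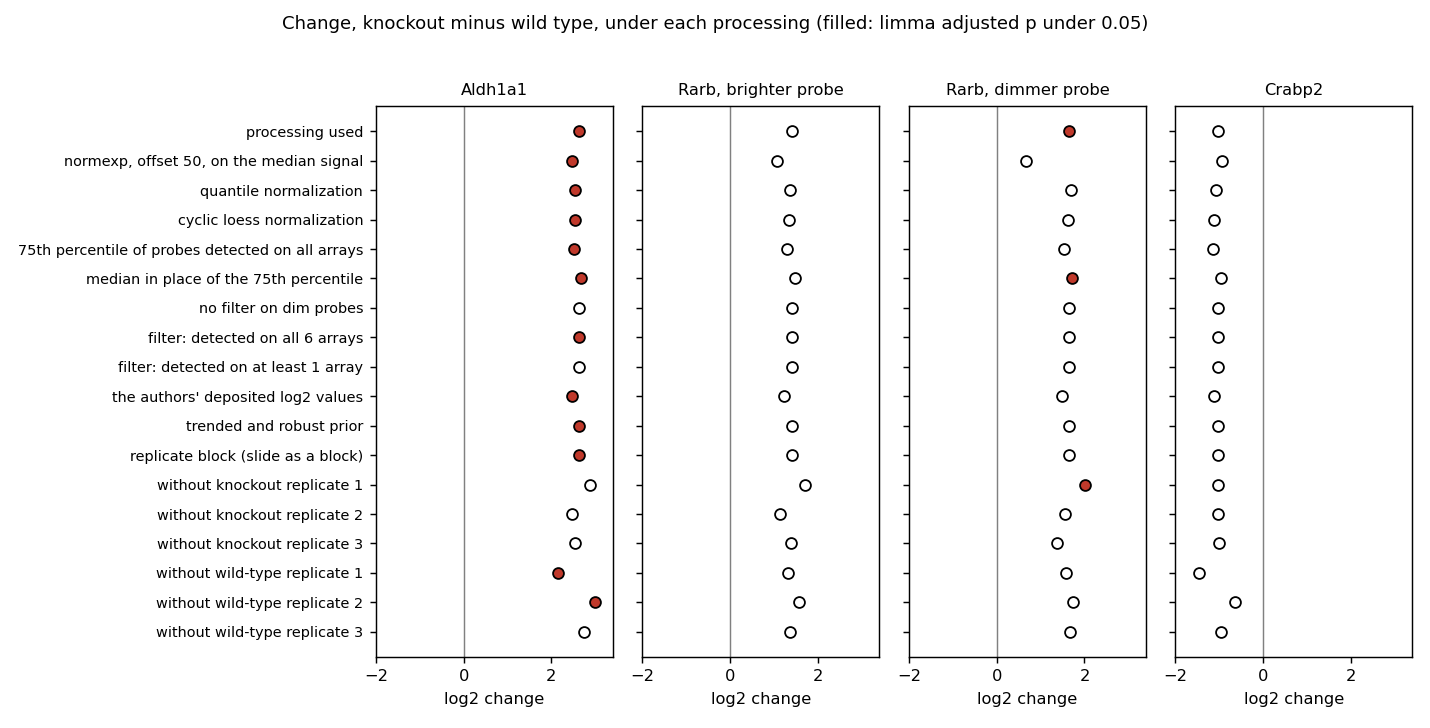
Log2 change, knockout minus wild type (x axis), of Aldh1a1, the 2 Rarb probes and Crabp2 under the processing used and 17 alternatives (rows), array weights left out; filled points have a limma adjusted p under 0.05. The points keep their side of 0 in every row, and for Aldh1a1 they stay between 2.16 and 2.98 while the call comes and goes.

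Cyp26b1, which hydroxylates retinoic acid and so limits its reach, did not pass. Its log2 signals were -0.99, -1.55 and -1.37 in the knockout and -2.56, -1.52 and -1.69 in wild-type cells. Knockout replicate 2 lay just below wild-type replicate 2, and the gap between the group means came largely from wild-type replicate 1. The change was 0.62 ± 0.33 (limma adjusted p = 0.325; 95% interval -0.15 to 1.40), and 0.31 without wild-type replicate 1. The other Cyp26 genes were at or near background: Cyp26a1, whose promoter repeat is printed above, was well above background on 1 knockout array and no wild-type array (knockout log2 signals -5.23, -3.97 and -4.78), and Cyp26c1 on none.

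The rest of the pathway was read through 6 lists of 61 genes, of which 45 were tested. Of these 45, 3 rose and 1 fell, against the 4.8% of all named genes that passed, and 12 had an unadjusted p under 0.05, against 21.8% of all named genes. Neither share is read as an excess. Their median change was 0.20, against 0.08 over all named genes. The genes that rose were the retinal reductase Dhrs3, the retinoid X receptor Rxra and the lipoprotein lipase Lpl, and the gene that fell was the retinol binding protein Rbp7.

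Dhrs3 had the smallest adjusted p among the retinoid genes as read by their brightest tested probes. It reduces retinal back to retinol, which lowers the supply for retinoic acid synthesis, and is itself induced by retinoic acid. Its log2 signals were 6.11, 6.14 and 6.16 in the knockout and 4.06, 4.37 and 4.25 in wild-type cells, so the groups were tight and far apart. The change was 1.91 ± 0.19 (SE, n = 3 per group), or 1.77 to 2.05 within slides (limma adjusted p = 0.00621; 0.0377 with slide as a block). It passed in 15 of 18 alternatives and missed with no filter on dim probes (0.0592), without knockout replicate 3 (0.0543) and without wild-type replicate 3 (0.0515). Of the other genes of retinol and retinal interconversion, 10 were tested and 0 passed. Of the 11 including Dhrs3, 4 had an unadjusted p under 0.05, against 21.8% of all named genes tested. With so few genes this is not read as an excess. Rdh10, the main retinol dehydrogenase of the embryo, changed by -0.01 ± 0.25.

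Among receptors and carriers to receptors, 1 of 7 passed, against 4.8% of all named genes tested, which is not read as an excess. Rxra, the common partner of the retinoic acid receptors, had log2 signals of -1.10, -0.90 and -0.94 in the knockout and -2.27, -2.20 and -2.26 in wild-type cells. The change was 1.26 ± 0.18 (SE, n = 3 per group; limma adjusted p = 0.0191), and 0.0646 with slide as a block. A dimmer Rxra probe gave 0.40 ± 0.48 (adjusted p = 0.675), so the probes disagree, and the brighter one passed in 9 of 18 alternatives, with a change of 0.68 under normexp (0.106). Rara and Rarg, the other retinoic acid receptors, changed by 0.10 ± 0.23 and 0.39 ± 0.23 and did not pass. Fabp5, a fatty acid carrier that can also deliver retinoic acid, had a change of 1.08 ± 0.46 (adjusted p = 0.243).

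Among genes of retinol uptake, binding and storage, 1 of 5 tested rose and 1 fell, against 3.3% and 1.49% of all named genes tested. With so few genes these counts are not read as an excess. Lpl, which frees fatty acids from lipoproteins and helps cells take up retinyl esters, had changes of 2.22 ± 0.43 and 2.74 ± 0.27 on its brighter and dimmer probes, and both passed (limma adjusted p = 0.0393 and 0.00587; 0.049 and 0.0271 with slide as a block). The brighter probe passed in 12 of 18 alternatives. Rbp7, a cellular retinol binding protein best known from fat and endothelium, had log2 signals of -3.04, -3.99 and -3.71 in the knockout, with 1 of these arrays well above background, and -2.14, -2.02 and -2.35 in wild-type cells. It changed by -1.41 ± 0.29 (limma adjusted p = 0.0445, or 0.0929 with slide as a block), a call kept in 4 of 17 alternatives, and by -0.47 with normexp. Rbp7 entered the test through its wild-type arrays alone, and was not tested with a filter of all 6 arrays bright. The size of its fall rests partly on knockout values at background. Lrat, which esterifies retinol for storage, stayed at background on all 6 arrays.

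Of 13 tested genes on the list of genes induced by retinoic acid, 0 passed in the limma fit, and 2 had an unadjusted p under 0.05. Over all named genes the shares were 4.8% and 21.8%. Rarb and Dhrs3, named as target genes above, are not on this list and are given in their own paragraphs. The change was above 0 for 10 of the 13, with a median of 0.38, against 0.08 over all named genes. The share of all named genes with a change above 0 was not computed, so the 10 of 13 is not read as an excess. The 2 genes with an unadjusted p under 0.05 were Rarres1 and Tgm2. Rarres1, named for its response to retinoids, had a change of 1.03 ± 0.22 (limma adjusted p = 0.055), and the transglutaminase Tgm2 had 1.91 ± 0.58 (0.124). A dimmer Tgm2 probe passed with 2.44 ± 0.51 (adjusted p = 0.0484; 0.110 with slide as a block). The Tgm2 knockout signals on the brighter probe were 6.60, 6.58 and 6.57, against 3.28, 5.74 and 5.00 in wild-type cells, with wild-type replicate 1 again the lowest. Of 9 receptor cofactors 0 passed in the limma fit and 2 had an unadjusted p under 0.05, the coactivators Ncoa1 (0.59 ± 0.18, adjusted p = 0.130) and Ncoa3 (0.50 ± 0.20, adjusted p = 0.217). 

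**Figure D3:**
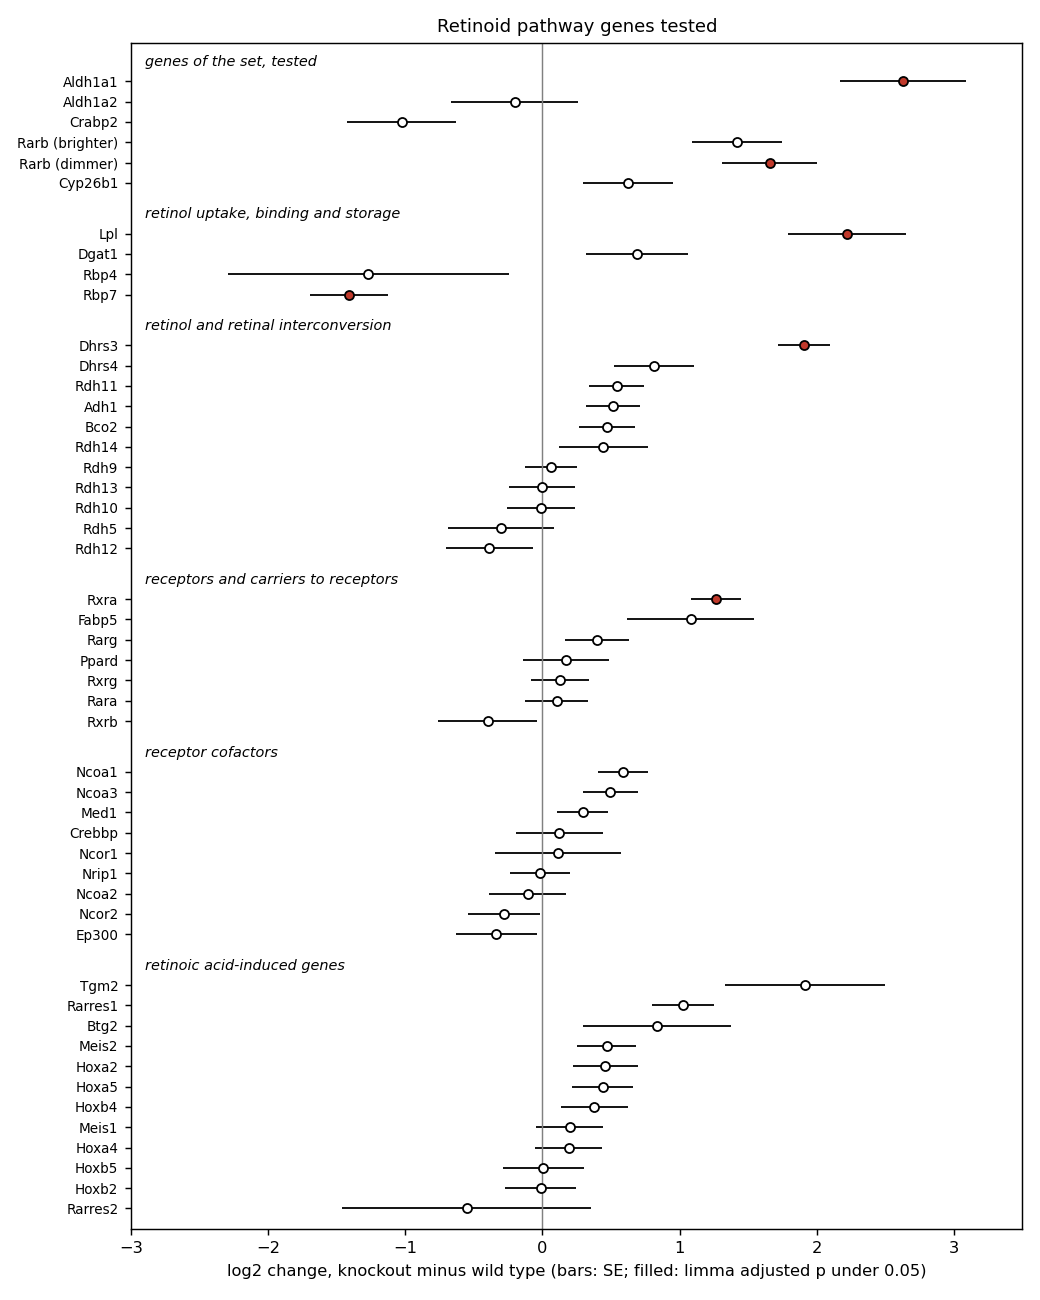
Log2 change, knockout minus wild type (x axis), of tested retinoid genes by their brightest probes, and of both Rarb probes (rows, grouped by list), with standard errors as bars and filled points for a limma adjusted p under 0.05; n = 3 arrays per group. Filled points are Aldh1a1, the dimmer Rarb probe, Lpl, Dhrs3 and Rxra to the right and Rbp7 to the left.

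Some markers of other cell types moved with genotype beside these genes. Of 13 mesothelial markers measured, 6 passed as higher (Msln, Upk3b, Wt1, Lrrn4, Bnc1 and Rspo1) and 0 as lower, with a median change of 3.72. The change was below 0 for the keratins Krt19 (-0.28) and Krt8 (-0.02) and above 0 for the other 11. Of all named genes tested, 3.3% passed as higher. Bnc1 was well above background on 1 of 3 wild-type arrays, and Upk3b and Lrrn4 on 2 of 3. Upk1b, Gpm6a, Krt8 and Cdh3, which did not pass, were likewise well above it on 2 of 3. All of these entered the test through the knockout arrays, and their changes rest partly on wild-type values at background. The median of 3.72 and the count of 6 thus rest partly on markers let in by the knockout group alone. Bright in both groups throughout were 6 of the 13, among them Msln, Wt1 and Rspo1. The summed signal of the 13 markers, in multiples of the array's 75th percentile, was 56.3 to 172 on the knockout arrays. On the wild-type arrays it was 4.60 to 23.1, and none of the 13 was at background on all arrays. Wild-type replicate 1 had the lowest signal of Msln, Upk3b, Wt1 and Lrrn4, as it had of Aldh1a1 and Aldh1a2, and also of the fibroblast markers Thy1, Vim and Fn1. Fewer cells of a type and less RNA per cell cannot be told apart in such cultures, and the part of mesothelial cells in the changes of Aldh1a1, Rarb and Dhrs3 was not tested. Of 12 fibroblast markers 2 rose (Col1a1 and Col1a2), and their summed signal was 2584 to 2687 in the knockout and 1294 to 2450 in wild-type cells. Of 7 pericyte and smooth muscle markers tested 2 rose (Myh11 and Des), with sums of 389 to 431 and 88.8 to 507. Myh11 was well above background on 2 of 3 wild-type arrays and Des on 1 of 3, so both entered the test through the knockout arrays. Of 5 lipofibroblast markers Lpl rose and Plin2 fell by 0.95, with sums of 64.9 to 68.6 and 44.2 to 55.2.

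Lung epithelial, macrophage and endothelial lists held 0 of 9, 0 of 4 and 0 of 5 tested markers past the limma test, with 0, 1 and 0 at an unadjusted p under 0.05. Over all named genes tested the shares were 4.8% and 21.8%. The smallest p values belonged to Hopx (-0.39) and Krt5 (-0.34), to Lyz2 (1.02) and Csf1r (0.66), and to Pecam1 (0.50) and Kdr (-0.19). Their summed signals overlapped between the groups, at 34.3 to 61.6 against 43.8 to 55.2 for epithelium, 45.1 to 109 against 55.9 to 66.9 for macrophages, and 3.71 to 5.43 against 4.06 to 5.73 for endothelium (knockout against wild type). Well above background on all 6 arrays were 5 of 8 endothelial markers, among them Pecam1 and Kdr, and 3 of 7 macrophage markers measured, among them Csf1r. Tek, Tie1 and Emcn of endothelium and Mrc1 of macrophages stayed at background throughout.

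The genes whose 6 values ran closest to those of the probes that passed were found among 12101 other named genes, by the root mean square difference of mean-centred log2 values over the 6 arrays. For Aldh1a1 they were Des, the muscle intermediate filament desmin, at 0.19 log2 units, Adamtsl1, an ADAMTS-like matrix protein, at 0.21, and Prph, the neuronal intermediate filament peripherin, at 0.23. Des and Prph passed (2.49 ± 0.44 and 2.32 ± 0.41; limma adjusted p = 0.0316 and 0.0304) and Adamtsl1 did not (0.0614). For the dimmer Rarb probe they were Gsta4, a glutathione transferase, at 0.27, Cmbl, a hydrolase, at 0.28 and Actn3, a muscle actinin, at 0.28. Gsta4 and Cmbl passed (1.97 ± 0.27 and 1.65 ± 0.23; limma adjusted p = 0.0173 and 0.0177) and Actn3 did not (0.0573). The distances rest on 6 arrays and are given as a description only.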

How the data were processed

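Deposited scanner tables of 6 one-colour arrays hold a processed spot intensity, background-subtracted by the authors with Agilent Feature Extraction 10.7.3.1 per the file headers (the submitters' processing notes name version 9.1). The authors' deposited table of log2 values, for 35844 probes with column medians from 5.51 to 5.76, matched each array at a correlation of 0.996 or more; its centring is unknown, and it served as an alternative.

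Control spots and outlier flags were left out and 59305 spots averaged to 55681 probes; no spot was saturated. Each array's 75th percentile was subtracted from log2 signals. A probe was tested if all 3 arrays of either group read it well above background (24216 probes). The test was limma 3.58.1 (R 4.3.3), with p-values adjusted by Benjamini-Hochberg. Probes were named by accession through RefSeq (47.4% matched), and a gene was read by its brightest tested probe. The fit was tested on simulated data.

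The 8 genes and all lists were chosen with earlier results of these data known. Protein lengths and identities were not computed here, and values of 2 list genes are not reported. Named were the 8 genes, Mmp19, list genes past the threshold or, where none passed, the 2 with the smallest p, and the 3 nearest genes to each probe that passed. Other pathway genes were named for their roles after their values were seen. P-values measure the spread between these cultures.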

Additional observations from a re-analysis of the deposited data

How the results depend on the processing

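The processing used called 1 gene of the set, 4 of the 45 other retinoid genes and 1124 probes (697 higher, 427 lower). Scaling to probes detected on all arrays moved the median probe change from 0.07 to -0.04 and the split to 607 higher and 562 lower, with the calls of Aldh1a1, Dhrs3, Lpl and Rxra kept. In the order genes of the set, other retinoid genes and probes, the counts were 0, 0 and 113 with no filter on dim probes, and 0, 1 and 345 with a filter of 1 bright array. With normexp, 2 other retinoid genes and 633 probes were called, and 650 probes with a filter of all 6 arrays bright. The mean of all probes of a gene gave 2 genes of the set, Aldh1a1 and Rarb. Array weights gave 4, 31 and 14879, but their fit stopped before convergence and put weights of 10.2 and 12 on 2 arrays against 0.16 to 0.384 on the others, so those calls, among them Crabp2 and Cyp26b1, were given no weight. Leaving out 1 array gave 0 to 2, 0 to 5 and 108 (without knockout replicate 3) to 1913 (without wild-type replicate 2), and moved Aldh1a2 from -0.72 to 0.24, positive without wild-type replicate 2. Without that array the split of called probes turned, to 792 higher and 1121 lower. Searching for a single half-site in place of a repeat gave 3 of the 6 genes with a window, against 46.9% of all genes with one.

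The replicate block, which is also the slide block since each slide held 1 replicate number, gave 385 probes and 2 other retinoid genes (Dhrs3 and Lpl), and kept Aldh1a1. Deviations of same-numbered arrays correlated at 0.0959, -0.0204 and 0.210, so the numbers were not taken as pairs. The causes of these differences were not tested.

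Single arrays also decided calls of named genes. Lpl was lost without any 1 knockout array or wild-type replicate 3 (adjusted p 0.0745 to 0.17), Rxra without any 1 array but wild-type replicate 2 (0.0524 to 0.115), and Rbp7 and the dimmer Rarb probe without any 1 array but knockout replicate 1 (0.0648 to 0.197 and 0.0573 to 0.18).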
